A study of Homo sapiens with 6 samples.

Results

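FABP1 and 8 related genes of small intracellular lipid carriers were read from an RNA sequencing table of Caco-2 cells, an established human colorectal tumour cell line that takes on features of intestinal absorptive cells. The members were chosen by gene symbol, as FABP1, FABP2, FABP3, FABP5, FABP6, RBP2, CRABP1, CRABP2 and DBI, and all 9 were found among the 27685 genes of the table. FABP1 antisense denotes 3 libraries of cells carrying the construct hFABP1as, whose genotype label is FABP1_knockdown, and vector control denotes 3 libraries of cells mock-transfected with pcDNA3, whose genotype label is WT. All 6 libraries came from polyA RNA of the same cell line kept in the same serum-containing medium. Neither the number of clones behind a group nor the use of separate cultures is given in the labels. The p-values therefore measure only the spread among these 6 libraries, possibly technical, and a difference between lines cannot be told apart from an effect of the construct.

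Intracellular lipid binding proteins are short cytosolic proteins that fold into a barrel of beta strands around a single ligand. In enterocytes, FABP1 and FABP2 bind long-chain fatty acids that enter from the gut lumen and pass them towards triglyceride synthesis or oxidation, FABP6 carries bile acids in the ileum, and RBP2 carries retinol and retinal. CRABP1 and CRABP2 bind retinoic acid, and CRABP2 is known to deliver it to retinoic acid receptors in the nucleus. DBI, also called acyl-CoA binding protein, is a helical protein outside the barrel family that holds the activated form of long-chain fatty acids.

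Most of the members resembled each other in gene structure. In the GENCODE transcripts matched by RefSeq accession, FABP1 (127 amino acids), FABP2 (132), FABP3 (133), RBP2 (134), FABP5 (135), CRABP1 (137) and CRABP2 (138) each had 4 exons. FABP6 (128 to 177 amino acids over 2 transcripts) and DBI (87 to 148 over 8 transcripts) varied in protein length. Transcripts of the members ran from 555 bases for FABP1 to 2478 bases for FABP2, and levels are compared between genes per kilobase.

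The 250 bases before the RefSeq transcription start (assembly GRCh38.p14) are shown for FABP1, FABP6, RBP2, CRABP1 and CRABP2. Beside FABP1, these 4 are the members past the test that had a single annotated start in RefSeq. FABP6 entered the test through the FABP1 antisense libraries alone, so its passing carries no weight. The stretches stand in this order because the first 3 carry a TATA box and the last 2 do not. They lie at chr2:88128063-88128312 (minus strand) for FABP1, chr5:160229256-160229505 (plus strand) for FABP6, chr3:139476517-139476766 (minus strand) for RBP2, chr15:78340103-78340352 (plus strand) for CRABP1 and chr1:156705785-156706034 (minus strand) for CRABP2. Each is written 5′ to 3′ on the strand of its gene, ending at the base before the start, and capitals mark the motif letters searched.
FABP1: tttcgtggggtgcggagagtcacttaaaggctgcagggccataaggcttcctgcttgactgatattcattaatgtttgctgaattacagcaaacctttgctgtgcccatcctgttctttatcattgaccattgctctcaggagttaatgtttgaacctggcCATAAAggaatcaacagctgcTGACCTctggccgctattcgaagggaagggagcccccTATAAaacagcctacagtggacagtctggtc
FABP6: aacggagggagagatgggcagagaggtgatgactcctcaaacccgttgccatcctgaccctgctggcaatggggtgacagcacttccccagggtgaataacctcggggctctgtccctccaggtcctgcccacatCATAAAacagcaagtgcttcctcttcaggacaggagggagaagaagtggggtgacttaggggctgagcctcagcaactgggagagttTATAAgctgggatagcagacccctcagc
RBP2: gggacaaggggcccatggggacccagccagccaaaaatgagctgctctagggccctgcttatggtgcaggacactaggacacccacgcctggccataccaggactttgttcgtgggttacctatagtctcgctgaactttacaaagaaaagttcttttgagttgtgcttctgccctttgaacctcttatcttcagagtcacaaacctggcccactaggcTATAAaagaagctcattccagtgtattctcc
CRABP1: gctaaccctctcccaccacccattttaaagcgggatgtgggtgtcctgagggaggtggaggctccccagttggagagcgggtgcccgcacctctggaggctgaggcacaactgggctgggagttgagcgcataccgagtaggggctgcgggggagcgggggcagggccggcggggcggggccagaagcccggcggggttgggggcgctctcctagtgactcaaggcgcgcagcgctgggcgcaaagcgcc
CRABP2: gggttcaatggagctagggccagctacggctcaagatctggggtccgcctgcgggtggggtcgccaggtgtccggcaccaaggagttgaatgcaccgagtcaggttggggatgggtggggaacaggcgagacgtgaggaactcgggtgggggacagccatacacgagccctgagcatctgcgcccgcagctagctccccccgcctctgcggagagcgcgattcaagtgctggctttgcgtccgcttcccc
The letters searched were TATAA for the TATA box, on the strand of the gene and within 40 to 20 bases before the start, and, on both strands of the whole stretch, TTTATG for the CDX factors and AGGTCA for the core element of nuclear receptors. TATAA stood at -31 in FABP1 and RBP2 and at -28 in FABP6, counted back from the start. FABP1 also held the CDX letters at -89 and the nuclear receptor letters at -68, and FABP6 held the CDX letters at -115. CRABP1 and CRABP2 held none of the 3 motifs and were rich in CpG, with 18 CpG each and a GC content of 70.0% and 65.6%. Of the 8 members whose promoters were read (all but FABP5), 4 (FABP1, FABP2, FABP6 and RBP2) held the TATA letters and 4 (FABP3, CRABP1, CRABP2 and DBI) did not, with GC contents of 31.2% to 56.8% and of 65.6% to 70.0% at the first listed start. Over 35116 promoters of the same length, TATAA stood in 3.82%, the CDX letters in 9.64% and the nuclear receptor letters in 12.1%. A match is a description of letters, and the motifs were chosen with these promoters in view.

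FABP1, the carrier named by the construct, did not differ past the test between the groups, and the libraries labelled FABP1 antisense showed no fall. It had 5503, 6579 and 6887 counts in FABP1 antisense libraries 2, 3 and 4, against 7932, 4158 and 5188 counts in vector control libraries 2, 3 and 4, numbered as in the column headers. As CPM, which scales counts by the effective library size, these were 134, 147 and 122 CPM in FABP1 antisense libraries, against 138, 102 and 121 CPM in vector control libraries. The groups overlapped, with vector control library 2 above 2 of the FABP1 antisense libraries and vector control library 3 the lowest of all 6. FABP1 antisense over vector control was 1.12-fold (95% interval 0.932 to 1.34), and edgeR's quasi-likelihood test was not passed (adjusted p = 0.268). Each gene has a single total, and whether strand was used in counting is not given. Transcripts of the antisense construct and of the endogenous gene therefore cannot be told apart here. Neither can fewer cells with a transcript and less of it per cell.

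Among the other members, the retinoid carriers and DBI moved, and they did so in both directions. Of all 14640 genes tested, 55.0% passed an adjusted p under 0.05, 27.7% higher and 27.3% lower in FABP1 antisense, and 62.7% had groups that did not overlap. Of the 5 members with counts in both groups that passed the filter on low counts, RBP2, CRABP1 and DBI were higher, CRABP2 was lower and FABP1 did not pass, and the groups did not overlap for the 4 that passed. FABP6 entered the test through the FABP1 antisense libraries alone, and FABP2, FABP3 and FABP5 had too few counts to be tested. With 55.0% of all tested genes called, a count of called members is no result about the members as a set.

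**Figure D1:**
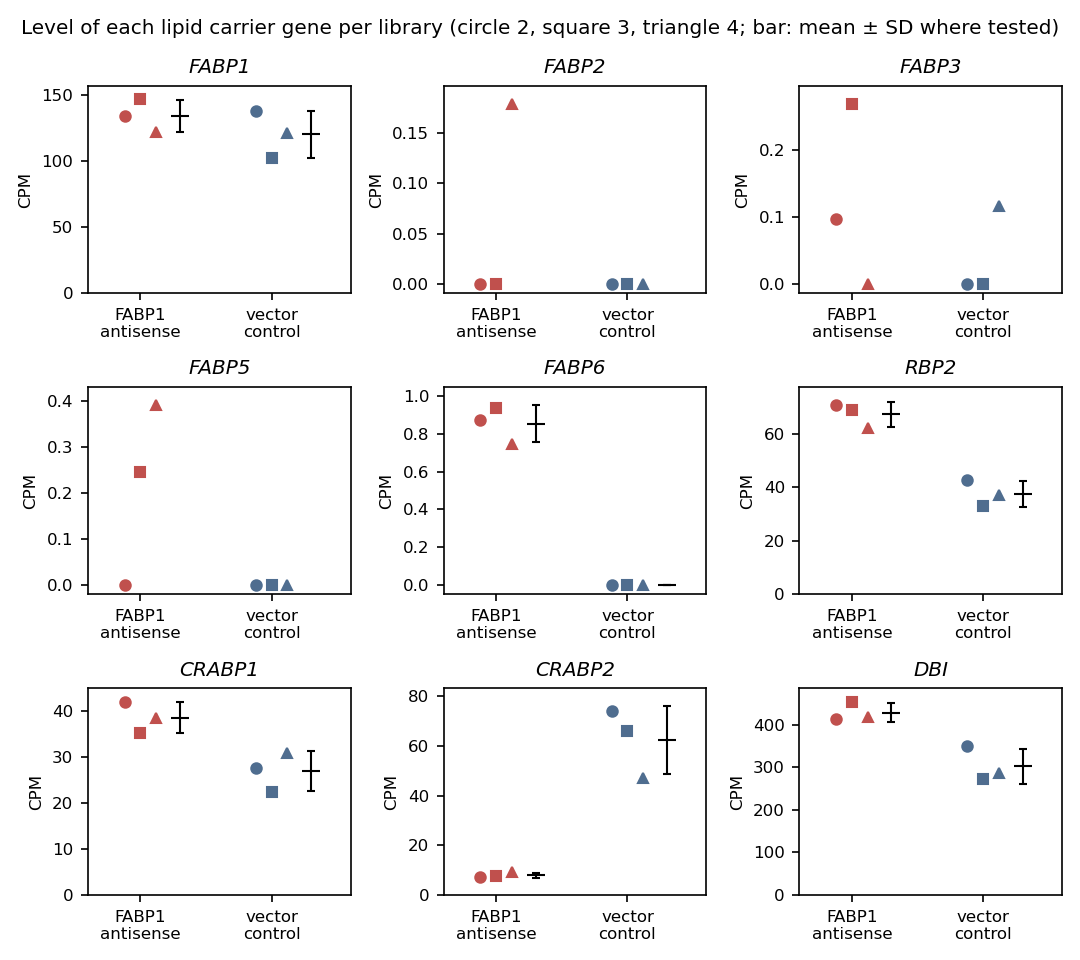
Level of each member in CPM (vertical axis, from 0) in the 3 FABP1 antisense (red) and 3 vector control (blue) libraries, with the header number as the symbol and bars for mean ± SD of tested members. FABP1 overlaps between the groups, CRABP2 stands at 7.19 to 9.14 CPM in FABP1 antisense libraries and 47.2 to 74.0 CPM in vector control libraries, and FABP6 is at 0 in all 3 vector control libraries.

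FABP6, the ileal bile acid carrier, was detected in FABP1 antisense libraries and in no vector control library. It had 36, 42 and 42 counts in FABP1 antisense libraries, against 0, 0 and 0 in vector control libraries. The 3 FABP1 antisense libraries were close to each other at 0.874, 0.939 and 0.747 CPM. Set against 3 counts over the vector control group, the limit that a count of 0 allows, FABP6 was at least 39.8-fold higher in FABP1 antisense. Having passed the filter on low counts through the FABP1 antisense libraries alone, it had to differ once tested, and no p is given for it. Its level was low even there, at 1.29 ± 0.148 CPM per kilobase of transcript (SD, n = 3), against 242 ± 22.3 for FABP1. In the annotation 7.80% of the 50-base stretches of FABP6 were also antisense to AC008609.1, and the strand setting of the counting is unknown.

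Genes that work around FABP6 in bile acid handling were read from a list of 15. Of the 9 tested, 5 were higher, 2 were lower and 2 did not pass, with a median log2 fold change of 0.30, beside 55.0% called (27.7% higher) and a median of 0.01 over all tested genes. These 9 include 2 genes that entered the test through a single group. NR1H4, the bile acid receptor FXR, which is known to activate FABP6, had 47, 61 and 66 counts in FABP1 antisense libraries, against 3, 0 and 0 in vector control libraries. Every FABP1 antisense library lay far above every vector control library, at 1.23 ± 0.12 CPM in FABP1 antisense and 0.0174 ± 0.0301 CPM in vector control (SD, n = 3 each). NR0B2, another target of FXR and itself a repressor, rose by 3.03 (SE 0.34), to 3.71 ± 0.358 CPM in FABP1 antisense, against 0.441 ± 0.233 CPM in vector control (SD, n = 3 each). SLC51B, a subunit of the basolateral bile acid exporter, rose by 1.77 (SE 0.09), to 37.0 ± 2.98 CPM in FABP1 antisense, against 10.9 ± 0.644 CPM in vector control. CYP27A1, a sterol hydroxylase, and ABCC3, an export pump, rose by 0.65 and 0.30. SLC10A2, the ileal bile acid importer, had 8, 7 and 10 counts in FABP1 antisense libraries, against 0, 0 and 0 in vector control libraries, below the filter and at least 8.29-fold higher over the group.

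The 2 lower genes of that list belong to liver bile acid handling. SLC10A1, the hepatic importer, had 0, 0 and 0 counts in FABP1 antisense libraries, against 21, 32 and 29 in vector control libraries, and was at least 27.5-fold lower. BAAT, which conjugates bile acids, fell by 0.76 (SE 0.24). SLC10A1 entered the test through the vector control libraries alone and NR1H4 through the FABP1 antisense libraries alone, so both were bound to differ once tested. FGF19, an enterocyte hormone induced by FXR, had 10, 6 and 0 counts in FABP1 antisense libraries, against 4, 0 and 0 in vector control libraries, and these overlapped. SLC10A1, BAAT and FGF19 were named after their values were seen.

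The remaining fatty acid carriers were at the limit of detection. FABP2, the intestinal fatty acid carrier, had 0, 0 and 10 counts in FABP1 antisense libraries, against 0, 0 and 0 in vector control libraries. FABP3, the heart type, had 4, 12 and 0 counts in FABP1 antisense libraries, against 0, 0 and 5 in vector control libraries. FABP5, the epidermal type, had 0, 11 and 22 counts in FABP1 antisense libraries, against 0, 0 and 0 in vector control libraries. For each of these genes at least 1 FABP1 antisense library was at 0, so the groups overlapped or touched. A single library holds all of the FABP2 counts and 22 of the 33 FABP5 counts, so no fold is given. FABP5 is uncertain, since 46.4% of its 50-base stretches occur in other genes, led by the pseudogenes FABP5P7, FABP5P1 and FABP5P2, and the counting could split such reads. FABP5P3, the FABP5 pseudogene listed in the table, had 2 counts in FABP1 antisense library 3 and 0 in the others.

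Family genes outside the 9 members were nearly silent. FABP4, the adipocyte form, FABP7, the brain form, PMP2, the myelin form, FABP9 and FABP12 had 0 counts in all 6 libraries. RBP7, another retinol carrier, had 4, 0 and 0 counts in FABP1 antisense libraries, against 15, 11 and 7 in vector control libraries. RBP5, the 1 tested gene of the 8 on that list, fell by 0.82 (SE 0.30, adjusted p = 0.0417), to 0.728 ± 0.212 CPM in FABP1 antisense, against 1.28 ± 0.228 CPM in vector control (SD, n = 3 each).

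RBP2, the cellular retinol carrier of the small intestine, was higher in FABP1 antisense. Its levels were 71.0, 69.1 and 62.2 CPM in FABP1 antisense libraries, against 42.7, 33.2 and 37.0 CPM in vector control libraries. Every FABP1 antisense library stood above every vector control library. The change was 1.79-fold (95% interval 1.52 to 2.11), or 0.84 on the log2 scale (SE 0.10, adjusted p = 1.80e-04).

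The retinoic acid carriers moved apart. CRABP1 had 41.8, 35.2 and 38.4 CPM in FABP1 antisense libraries, against 27.6, 22.3 and 30.9 CPM in vector control libraries. The nearest libraries, FABP1 antisense 3 and vector control 4, still did not overlap, and CRABP1 was 1.43-fold higher (95% interval 1.17 to 1.73, log2 fold change 0.51, SE 0.12, adjusted p = 0.00716). CRABP2 had 7.19, 7.69 and 9.14 CPM in FABP1 antisense libraries, against 74.0, 65.9 and 47.2 CPM in vector control libraries. The gap between the groups was wide, with vector control library 4 the lowest of its group, and CRABP2 fell by 2.96 on the log2 scale (SE 0.17, 95% interval -3.35 to -2.56, adjusted p = 2.04e-06), which is 7.77-fold lower in FABP1 antisense. By absolute log2 fold change CRABP2 lay at the 96.1 percentile of all tested genes, CRABP1 at the 63.9 percentile and RBP2 at the 80.1 percentile. Of the 50-base stretches of CRABP1, 35.8% were antisense to AC011270.2, a gene on the opposite strand, whereas neither CRABP gene shared a sense stretch with another gene.

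The ratio of the retinoic acid carriers within a library does not depend on library scaling. CRABP1 over CRABP2 counts was 5.81, 4.58 and 4.20 in FABP1 antisense libraries, against 0.373, 0.338 and 0.656 in vector control libraries. The groups were far apart, with an 11.1-fold difference in the ratio. Ratios of counts carry no correction for length, so they are read between groups and not as which gene is more abundant. RBP2 over FABP1 was 0.531, 0.470 and 0.508 in FABP1 antisense libraries, against 0.310, 0.326 and 0.306 in vector control libraries, or 1.6-fold. DBI over FABP1 differed 1.27-fold and RBP2 over DBI 1.26-fold, and neither overlapped between the groups. Each of the 4 ratios gave an exact two-sided permutation p of 0.1, also 0.1 after Benjamini-Hochberg adjustment over the 4, and 0.1 is the smallest p that 3 libraries against 3 allow. The ratios share members and were chosen after values were seen.

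**Figure D2:**
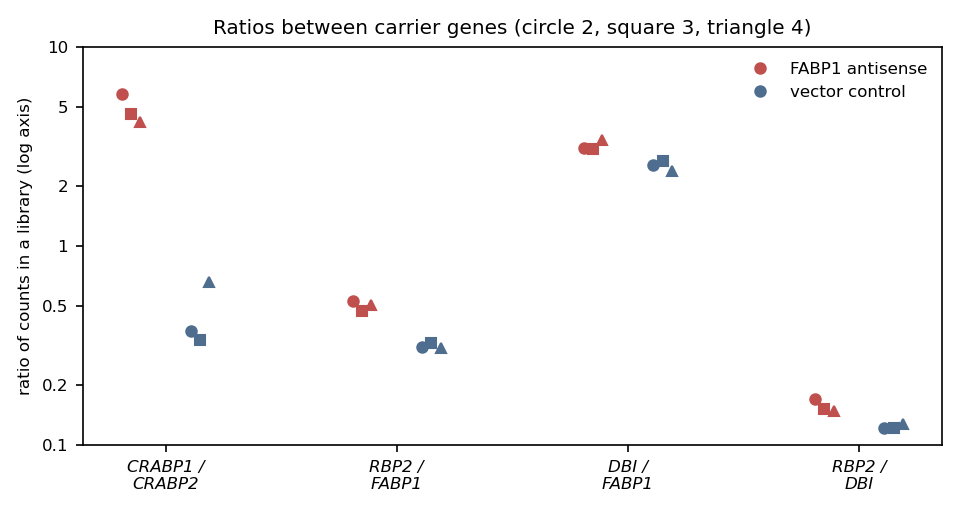
Ratio of the counts of 2 members within each library (vertical axis, logarithmic), FABP1 antisense in red and vector control in blue, with the header number as the symbol. CRABP1 over CRABP2 lies above 4 in all FABP1 antisense libraries and below 1 in all vector control libraries, and RBP2 over FABP1 lies at 0.470 to 0.531 in FABP1 antisense and 0.306 to 0.326 in vector control.

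The wider retinoid handling list held 27 symbols, of which 25 were in the table and 18 were tested. Of these, 6 were higher, 6 were lower and 6 did not pass, with a median log2 fold change of 0.08, beside 27.7% higher and 27.3% lower among all tested genes. STRA6, the membrane receptor that takes retinol from its plasma carrier, fell by 1.38 (SE 0.09), to 16.8 ± 1.21 CPM in FABP1 antisense, against 43.8 ± 2.33 CPM in vector control (SD, n = 3 each). ISX, an intestinal homeobox repressor, rose by 1.11 (SE 0.09), to 27.9 ± 1.09 CPM in FABP1 antisense, against 12.9 ± 1.31 CPM in vector control. BCO1, the carotene-cleaving enzyme, had 44, 53 and 38 counts in FABP1 antisense libraries, against 8, 0 and 7 in vector control libraries, and is the 1 gene of the list that entered the test through the FABP1 antisense libraries alone. LRAT, which esterifies retinol bound to RBP2, had 0, 0 and 0 counts in FABP1 antisense libraries, against 0, 0 and 2 in vector control libraries.

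Receptors of retinoic acid and the enzymes that make or remove it held genes of both directions. The retinoic acid receptor gene RARG rose by 1.08 (SE 0.22), whereas RARA fell by 0.27 (SE 0.08, adjusted p = 0.0232) and RARB, at a log2 fold change of 0.53, did not pass (adjusted p = 0.114). The partner receptors RXRA and RXRB fell by 0.51 and 0.84. DHRS3, which reduces retinal back to retinol, fell by 0.85, and TGM2, a transglutaminase known to be induced by retinoic acid, fell by 0.65. RDH5, a retinol dehydrogenase, rose by 1.07, RARRES3 by 1.00 and ALDH1A1, which makes retinoic acid from retinal, by 0.37. CYP26B1, which breaks retinoic acid down, had a log2 fold change of 0.04 and did not pass. BCO1, RARRES3, ALDH1A1, DHRS3, TGM2, RXRA, RXRB, RARB and CYP26B1 were named after their values were seen.

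DBI, the acyl-CoA carrier, was higher in FABP1 antisense. Its levels were 415, 454 and 418 CPM in FABP1 antisense libraries, against 350, 272 and 288 CPM in vector control libraries. The groups did not overlap, although vector control library 2 was well above the other two of its group. DBI was 1.41-fold higher (95% interval 1.21 to 1.65, log2 fold change 0.50, SE 0.10, adjusted p = 0.00241), near the middle of the changes of all tested genes at the 62.9 percentile of absolute log2 fold change.

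Other proteins that bind acyl-CoA or lipid were read from a list of 8, all tested, of which 3 were higher, 2 were lower and 3 did not pass, with a median of 0.07, beside 55.0% called among all tested genes. ACBD7, a small relative of DBI, rose by 1.48 (SE 0.14), to 11.3 ± 0.414 CPM in FABP1 antisense, against 4.06 ± 0.694 CPM in vector control (SD, n = 3 each). ACBD5, which tethers peroxisomes to the endoplasmic reticulum, rose by 1.02 (SE 0.08), and STARD10, a phospholipid transfer protein, by 0.47 (SE 0.10). HSDL2 and ACBD4 fell by 0.40 and 0.36. ACBD3, ACBD6 and SCP2 had log2 fold changes of 0.05, -0.13 and 0.08 and did not pass, and these 3 and ACBD4 were named after their values were seen. DBI itself, at 0.50, lay between STARD10 and ACBD5.

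**Figure D3:**
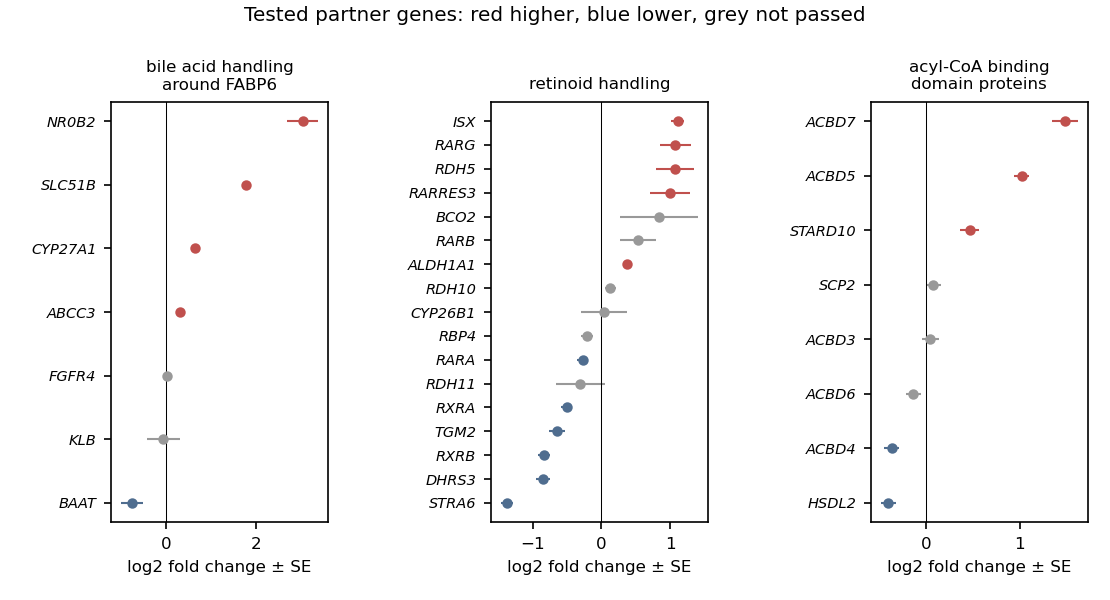
Log2 fold change ± SE of FABP1 antisense over vector control (horizontal axes, each panel with its own scale) for the tested genes of the lists for bile acid handling, retinoid handling and acyl-CoA binding, red where higher, blue where lower and grey where the test was not passed. NR0B2 leads the bile acid panel at 3.03 and STRA6 is the lowest retinoid gene at -1.38, while NR1H4, SLC10A1 and BCO1, which entered the test through a single group, are not drawn.

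Per kilobase of transcript, DBI and FABP1 were the leading carriers of both groups. In FABP1 antisense the means were 666 ± 33.7 CPM per kilobase for DBI, 242 ± 22.3 for FABP1, 97.2 ± 6.65 for RBP2, 49.8 ± 4.26 for CRABP1, 7.91 ± 0.999 for CRABP2 and 1.29 ± 0.148 for FABP6 (SD, n = 3). In vector control they were 471 ± 63.6 CPM per kilobase for DBI, 216 ± 32.4 for FABP1, 61.6 ± 13.6 for CRABP2, 54.2 ± 6.90 for RBP2 and 34.9 ± 5.66 for CRABP1. Neighbours in the order did not overlap in FABP1 antisense from DBI down to FABP6, with FABP5 (0.250), FABP3 (0.168) and FABP2 (0.0239) overlapping below it. In vector control the ranges of CRABP2 and RBP2 overlapped, so their order is not set, and FABP3 (0.0535) was the only further member with a count. CRABP2 thus was number 5 by level in FABP1 antisense and level with RBP2 behind FABP1 in vector control.

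**Figure D4:**
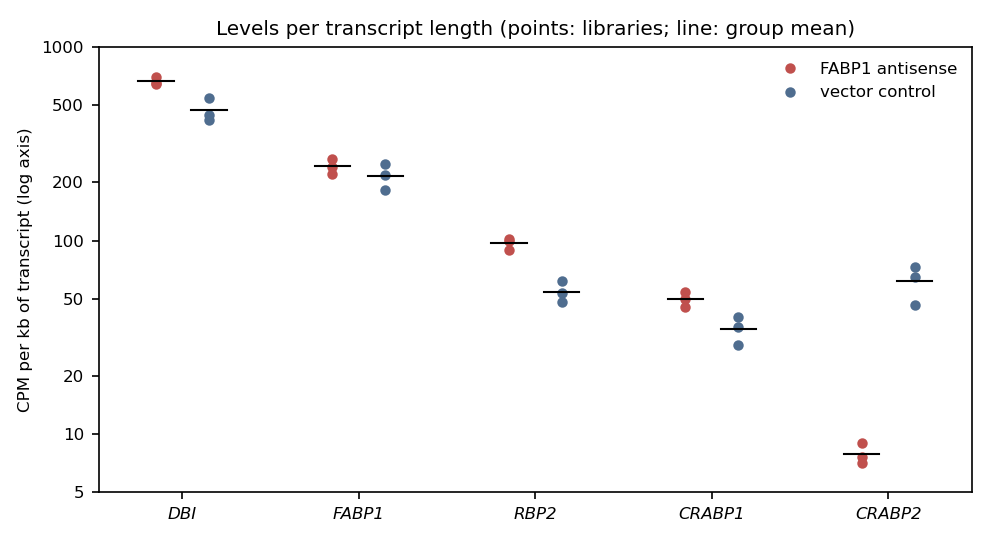
Level of the 5 most abundant members in CPM per kilobase of transcript (vertical axis, logarithmic) in each FABP1 antisense (red) and vector control (blue) library. DBI and FABP1 lead in both groups, and CRABP2 stands at 7.10 to 9.03 in FABP1 antisense and 46.6 to 73.1 in vector control.

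In the summed RNA level of the members, the shares of several members did not overlap between the groups, although the level of FABP1 itself did not pass the test. Summed over the 9 members the level was 1049, 1124 and 1019 CPM per kilobase in FABP1 antisense libraries, against 961, 748 and 805 in vector control libraries. FABP1 made up 22.9%, 23.6% and 21.6% of that sum in FABP1 antisense libraries, against 25.8%, 24.5% and 27.1% in vector control libraries. The share of FABP1 was thus lower in each FABP1 antisense library, beside more DBI and RBP2 in the sum. DBI held 62.5% ± 1.16 in FABP1 antisense and 56.2% ± 0.55 in vector control, and RBP2 held 9.13% ± 0.535 in FABP1 antisense and 6.48% ± 0.13 in vector control (SD, n = 3 each). CRABP2 held 0.746% ± 0.121 in FABP1 antisense and 7.37% ± 1.47 in vector control. CRABP1 held 4.70% ± 0.572 in FABP1 antisense and 4.19% ± 0.691 in vector control, which overlapped (exact two-sided permutation p = 0.3). For FABP1, DBI, RBP2, CRABP2 and FABP6 the exact two-sided permutation p was 0.1, or 0.18 after Benjamini-Hochberg adjustment over the 9 shares, and no share could reach less than 0.1. The shares of a library sum to 100%, so they are not independent. By coding length in place of transcript length, FABP1 held 17.5% in FABP1 antisense and 19.7% in vector control.

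Factors known for FABP1 transcription were read from a list of 18. Of the 17 tested, 5 were higher, 5 were lower and 7 did not pass, with a median log2 fold change of -0.06, beside 27.7% higher and 27.3% lower among all tested genes, so the count is near the background. HNF4A, a nuclear receptor gene known to drive FABP1, did not pass, at a log2 fold change of 0.13 (adjusted p = 0.145). HNF4G, a relative of HNF4A, rose by 3.26 (SE 0.16), to 20.1 ± 1.72 CPM in FABP1 antisense, against 2.11 ± 0.491 CPM in vector control (SD, n = 3 each). CDX2, the intestinal homeobox factor whose letters stand in the FABP1 and FABP6 stretches printed above, rose by 1.09 (SE 0.08), to 164 ± 12.4 CPM in FABP1 antisense, against 77.0 ± 5.39 CPM in vector control. Whether CDX2 acts at those letters was not tested. The fatty acid receptor genes PPARG and PPARA rose by 2.19 (SE 0.07) and 0.41 (SE 0.08), whereas PPARD fell by 0.85. GATA4 rose by 0.26 and GATA5 fell by 1.88 (SE 0.23), GATA6 by 0.20 and FOXA1 by 0.32. PPARD, GATA4, GATA6 and FOXA1 were named after their values were seen.

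Genes that hand fatty acids to FABP1 and FABP2 or take them on were listed as 13, of which 12 were tested, 6 higher, 4 lower and 2 not passed, with a median of 0.15, beside 27.7% higher and 27.3% lower among all tested genes. ACSL1, which activates fatty acids to acyl-CoA, rose by 2.59 (SE 0.10), CPT1A, the gate to mitochondrial oxidation, by 1.68 (SE 0.13), MOGAT3, an acyltransferase on the way to triglyceride, by 1.22 (SE 0.11) and GOT2 by 0.27. MTTP, which loads triglyceride onto lipoprotein, had 2217, 2794 and 3128 counts in FABP1 antisense libraries, against 6, 4 and 0 in vector control libraries. MOGAT2, the enterocyte form, had 24, 43 and 23 counts in FABP1 antisense libraries, against 3, 0 and 0 in vector control libraries. MTTP and MOGAT2 entered the test through the FABP1 antisense libraries alone. The lower genes were the transporters SLC27A2 and SLC27A4, the acyl-CoA synthetase gene ACSL5 and the last acyltransferase DGAT2, which fell by 0.55, 0.45, 0.23 and 0.54. DGAT1, the other enzyme of that last step, had a log2 fold change of -0.20 and did not pass (adjusted p = 0.101). GOT2, MOGAT2 and the 4 lower genes were named after their values were seen.

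Neighbouring genes on the chromosome were read beside each member, as the 10 tested genes on either side in RefSeq gene order. Among all tested genes 27.7% were higher and 27.3% lower, beside which the counts below are given. Neighbours that entered the test through a single group, and so were bound to be called, were not taken out of these counts. Fitted values such as 7.96 for NIPAL4 and 8.44 for ATP10B beside FABP6 are of the size seen for such genes. So are 5.49 for PRSS12 beside FABP2 and -7.46 for LOC101929457 beside CRABP1. CRABP2 at -2.96 stood far below the median log2 fold change of its neighbours, -0.29, with 2 of 20 higher and 10 lower. A single neighbour, RHBG at -3.86, lay below CRABP2. RBP2 at 0.84 lay above a median of 0.21 and DBI at 0.50 above a median of -0.18, with 8 higher and 1 lower beside RBP2 and 2 higher and 7 lower beside DBI. CRABP1 at 0.51 lay above a median of 0.14, and FABP1 at 0.16 above a median of -0.10. The nearest tested genes to FABP1, KRCC1 and THNSL2, both passed as higher, at 0.53 each (adjusted p = 0.00444 and 0.0113). Around FABP6, 12 of 20 neighbours were higher and 0 lower, with a median of 0.46, and around FABP5 14 were higher and 2 lower, with a median of 0.60. Around FABP3 2 were higher and 13 lower, with a median of -0.45, and around FABP2 10 were higher and 2 lower, with a median of 0.27. With 5 genes on either side in place of 10, the median moved to 0.45 beside RBP2, 0.31 beside CRABP1, 0.17 beside FABP2 and -0.25 beside FABP3. With 20 genes on either side it moved to -0.19 beside FABP1, 0.30 beside CRABP1, -0.47 beside FABP3, 0.37 beside FABP5 and 0.29 beside FABP6. With neither width did it change sign beside any member.

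**Figure D5:**
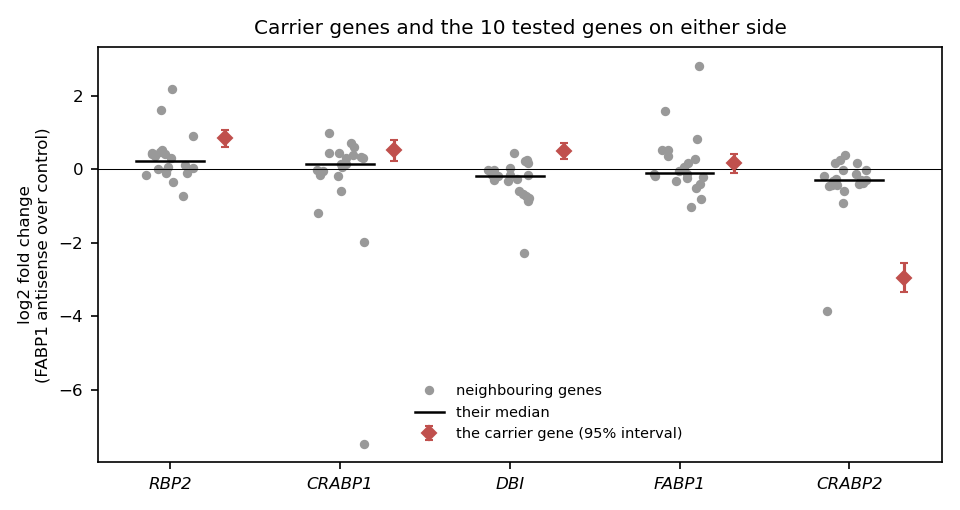
Fitted log2 fold change of FABP1 antisense over vector control (vertical axis) for RBP2, CRABP1, DBI, FABP1 and CRABP2 (red diamonds with 95% intervals) and for the 10 tested genes on either side of each (grey points, black line at their median). CRABP2 at -2.96 lies far from the median of its neighbours at -0.29, and FABP1 lies among its neighbours. Fitted values of genes with a group near 0 counts are no estimate of size.

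Genes with the most similar profile to a member were sought among 10025 tested genes (mean log2 CPM no lower than 3), by the root mean square difference of centred log2 CPM over the 6 libraries. CCDC12 (0.036), RPL36A (0.042) and FOXD2-AS1 (0.047) were nearest to FABP1, and ATP5I (0.047), SNAI1 (0.058) and PLLP (0.062) to RBP2. Nearest to CRABP1 were TWNK (0.047), SLC35C1 (0.073) and NDUFB9 (0.076), and nearest to DBI were RP9 (0.044), MAPKAPK5-AS1 (0.053) and RPL6 (0.053). CRABP2 had no gene as near, with SDC2 (0.173), LIN7A (0.183) and DKK1 (0.211) its closest. The measure is absolute, and few genes changed as much as CRABP2, at the 96.1 percentile of absolute log2 fold change. Its larger distances are therefore no sign of a distinct profile. RPL36A and RPL6 have many near-identical copies in the genome, so their counts are uncertain.

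The libraries as a whole frame these values. Total counts ran from 41768687 to 55153051 in FABP1 antisense and from 40351394 to 57979037 in vector control, and 3 counts over a group came to 0.0211 CPM in FABP1 antisense and 0.0212 CPM in vector control. All 10 markers of intestinal epithelium were detected, 7 of them higher and 1 lower, beside 27.7% higher and 27.3% lower among all tested genes. GPA33, at 12.3 ± 2.4 CPM in FABP1 antisense and 0.0524 ± 0.0631 CPM in vector control, entered the test through the FABP1 antisense libraries alone. It was therefore bound to differ once tested. Their sums, carried by KRT8 and KRT18, were 15231 to 17926 CPM in FABP1 antisense and 13088 to 15980 CPM in vector control. Low markers of that list differed more, with KRT20 at 5.35 ± 0.681 CPM in FABP1 antisense and 0.587 ± 0.0882 CPM in vector control and LGALS4 at 12.8 ± 0.715 CPM in FABP1 antisense and 0.455 ± 0.147 CPM in vector control (SD, n = 3 each). VIL1 and EPCAM had lower means in FABP1 antisense. VIL1 stood at 441 ± 19.5 CPM in FABP1 antisense and 507 ± 33.1 CPM in vector control. EPCAM stood at 684 ± 36.9 CPM in FABP1 antisense and 721 ± 48.2 CPM in vector control. Of 7 hepatocyte markers, which share with FABP1 an expression in liver, 6 were tested. Of these, 1 was higher and 4 were lower, beside the same shares over all tested genes. The hepatocyte sums were 1668 to 1885 CPM in FABP1 antisense and 3103 to 3512 CPM in vector control. Markers of leukocytes (60.6 to 63.2 CPM in FABP1 antisense and 44.0 to 47.8 CPM in vector control, PTPRC at 0), fibroblasts (32.1 to 36.2 CPM in FABP1 antisense and 39.7 to 42.6 CPM in vector control, DCN at 0) and adipocytes (15.6 to 20 CPM in FABP1 antisense and 3.31 to 5.17 CPM in vector control, ADIPOQ, LEP and LPL at 0) summed to little. Within the fibroblast list, LUM stood at 18.1 ± 1.87 CPM in FABP1 antisense and 0.133 ± 0.0873 CPM in vector control, and PDGFRA at 0.386 ± 0.285 CPM in FABP1 antisense and 22.7 ± 3.49 CPM in vector control (SD, n = 3 each). The part of the marker differences in the values of the members was not tested.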

How the data were processed

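The deposited table held raw read counts from the authors for 27685 genes, named by symbol and Entrez ID, and these counts were used for 3 FABP1 antisense and 3 vector control libraries. The build GRCh37 and the tools StringTie 1.3.4d, HISAT2 2.1.0, Bowtie2 2.3.4.1, Trimmomatic 0.38 and bcl2fastq are named, with no role for each, per the submitters' processing notes. Per the labels' protocols, libraries were made with a stranded mRNA kit, while whether strand was used in counting is not given. Another 12 per-library columns were not used. Column headers number the libraries 2 to 4 and the labels 1 to 3, so columns were matched to groups only.

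Counts were tested in R 4.3.3 with edgeR 4.0.16 (filterByExpr, TMM scaling, glmQLFit and glmQLFTest, 14640 genes, Benjamini-Hochberg threshold 0.05). CPM used effective library sizes. The SE of a log2 fold change was its size over the square root of F, and 95% intervals used the total degrees of freedom. Floors of 3 counts cover counting error only. Within a group, libraries differed beyond sampling noise (14.3 to 41.2 chi-square units per degree of freedom).

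Lengths and shared 50-base stretches came from GENCODE transcripts and gene order and promoters from RefSeq (GRCh38.p14), both of another build than the counts, so no coordinate was carried over. Coding lengths came from the same GENCODE annotation. Promoters were read for 8 of the 9 members. Alternatives were other scalings, filters, DESeq2 1.42.0, a replicate block and leaving out each library, and coding lengths and the ratios were added after seeing the data. The members and lists were chosen with earlier results of these data known. The rule named all 9 members, up to 4 genes per list with the largest changes past the threshold (mean log2 CPM of at least 1, no overlap), HNF4A, PPARA, NR1H4, SLC10A2, RARA, LRAT and DGAT1, and the 3 genes of most similar profile. Some genes of the lists are not reported here. Tables and figures were made in Python 3.11.15 (pandas 2.3.3, scipy 1.17.1, numpy 2.4.6, matplotlib 3.10.9).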

Additional observations from a re-analysis of the deposited data

How the results depend on the processing

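RBP2, CRABP1, CRABP2 and DBI kept their direction and passed in all 12 alternatives, and FABP1 did not pass in any of the 12. FABP6 entered every test through the FABP1 antisense libraries alone, so its passing is not counted, and it could not be tested under a filter of at least 1 CPM in 3 libraries. Log2 fold changes ranged from 0.05 to 0.27 for FABP1 (adjusted p 0.0874 to 0.677), from 0.75 to 0.94 for RBP2, from 0.39 to 0.62 for CRABP1, from -3.13 to -2.82 for CRABP2 and from 0.43 to 0.61 for DBI. Leaving out 1 library at a time changed the place of 0 to 3 members in the order by level per length (2 without FABP1 antisense library 4, 3 without vector control library 4), all of them members near 0 counts. The header numbers did not pair the libraries, as the correlations of same-numbered deviations were 0.0619, -0.275 and -0.483. With the numbers as a replicate block, 6661 genes were called in place of 8054, and FABP1 stood at 0.17 (adjusted p = 0.323). Other scalings moved the median log2 fold change of all tested genes by less than 0.1. Of 18 medians of neighbouring genes taken over 5 or 20 genes a side, 9 moved by more than their SD over the FABP1 antisense libraries and none changed sign. FABP2, FABP3 and FABP5 have 0 to 22 counts in a library, too few to compare between the groups.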
